A study of Mus musculus with 2 samples.

Results

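The EGF family genes Areg, Ereg, Hbegf, Tgfa, Btc, Nrg1, Egfr, Erbb2 and Erbb3 were taken by their symbols, 9 of the 32285 genes in the count files. Of these, 6 encode ligands and 3 encode receptors, and each symbol belongs to 1 gene only. They were measured by single-cell RNA sequencing in tumors from the abraded peritoneal wall of female C57BL/6 mice of 6-8 weeks, injected with syngeneic SO ovarian cancer cells (p53-/-, Myc, Hras). All mice had the abrasion and the cancer cells. One group was injected daily with control IgG (tumors of 7 mice pooled) and the other with an Activin A neutralizing antibody (8 mice pooled), from the day after the cancer cells and for 10 days per the labels. The study's text gives other numbers of mice and days. Each group is 1 library, so no test between groups was possible, and the antibody cannot be told apart from the handling of its library. SO is a single cultured line, and the tumors also hold host cells.

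EGF family ligands are made as membrane proteins and are released by proteases of the ADAM family. Areg (amphiregulin), Tgfa, Btc (betacellulin), Ereg (epiregulin) and Hbegf (heparin-binding EGF-like growth factor) bind the EGF receptor, Egfr, and some of them also bind Erbb4. Nrg1 (neuregulin) binds Erbb3 and Erbb4. Erbb2 binds no ligand of its own and pairs with the other receptors, while Erbb3 has little kinase activity and signals through a partner. The signal passes through Ras and the ERK kinases, and the SO cells carry an Hras transgene. The antibody binds Activin A, a ligand of another family.

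Cells were assigned to classes by marker genes that include none of these 9 genes. A cell was cancer-like by Dlk1, Hmga2, Cdkn2a, Lgals7 and Mid1, stromal by Col1a1, Col1a2, Col3a1, Dcn, Lum, Pdgfra and Pdgfrb, macrophage-like by a list that includes C1qa, C1qb, C1qc, Adgre1 and Mrc1, and T-like by Cd3d, Cd3e, Cd3g, Trac and Trbc2. With control IgG 338 cells were cancer-like, 205 stromal, 1429 macrophage-like and 5214 T-like, of 8770 cells kept. With the antibody there were 350, 219, 493 and 4122 of 6386. The libraries hold 98174850 and 74117462 UMIs, and 19 barcodes of kept cells occur in both. The median cancer-like cell held 56979 UMIs with control IgG and 55660.5 with the antibody, the median stromal cell 16549 and 10293, the median macrophage-like cell 7346 and 5685, and the median T-like cell 4916 and 4266. The cancer-like cells carried 1306 and 1353 CPM of Dlk1 and 12.1 and 5.77 CPM of the leukocyte gene Ptprc. Both genes were used to assign these cells, Dlk1 as a marker and Ptprc by an upper limit of 1 UMI per 10000. Their levels are therefore no independent check of the class. Of the paired epithelial keratins, which were not used to assign cells, Krt18 stood at 623 and 676 CPM in cancer-like cells, in 84.9% and 90.6% of them, against 72.1 and 66.7 CPM in stromal cells. Its partner Krt8 was low in cancer-like cells, at 15.4 and 16.9 CPM, and higher in stromal cells, at 191 and 122 CPM.

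Levels are given as CPM. For this, the UMIs of all cells in a class were added up for each gene and scaled to the class total. Values in brackets are exact Poisson 95% intervals for CPM, exact Clopper-Pearson intervals for shares of cells, and conditional binomial intervals for log2 ratios. They reflect counting error alone, and the spread between mice or between libraries is not part of them. Where a gene's UMIs lie in few cells they are too narrow. A sum over the cells of a class compares 1 gene between classes and libraries, and levels of different genes were not compared.

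The promoters of Areg and Btc, ligands with most of their UMIs in cancer-like cells, and of Egfr, the receptor with most of its UMIs in stromal cells, are shown because these genes carry the pattern described below. Ereg, Areg and Btc are neighbours on chromosome 5 of GRCm38, at chr5:91074622-91093646 on the plus strand, chr5:91139599-91148432 on the plus strand and chr5:91357261-91402994 on the minus strand. Gaps of 45953 and 208829 bases separate them. Tgfa lies at chr6:86195223-86275719 (plus), Nrg1 at chr8:31814551-32884029 (minus), Egfr at chr11:16752203-16918158 (plus), Erbb2 at chr11:98412470-98437716 (plus) and Erbb3 at chr10:128567523-128589652 (minus). The RefSeq promoter table (GRCm38.p6, 250 bases before to 50 after the start of each gene) matched 5 of the 9 genes, namely Areg, Tgfa, Btc, Egfr and Erbb2. It had no entry for Ereg, Hbegf, Nrg1 and Erbb3. Each promoter is written 5′ to 3′ along its gene. Capitals mark matches on either strand to TGACG, which is also part of the cyclic AMP response element TGACGTCA, to the SP1 motif GGGCGG or to the TATA motif TATAA.

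Areg (chr5:91139349-91139648, plus): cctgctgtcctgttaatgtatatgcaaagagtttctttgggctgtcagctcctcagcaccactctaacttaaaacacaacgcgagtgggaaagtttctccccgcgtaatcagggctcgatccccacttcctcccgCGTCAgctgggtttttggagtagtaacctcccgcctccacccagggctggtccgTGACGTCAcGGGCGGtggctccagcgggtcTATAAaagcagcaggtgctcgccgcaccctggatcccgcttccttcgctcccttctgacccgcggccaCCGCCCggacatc
Btc (chr5:91402945-91403244, minus): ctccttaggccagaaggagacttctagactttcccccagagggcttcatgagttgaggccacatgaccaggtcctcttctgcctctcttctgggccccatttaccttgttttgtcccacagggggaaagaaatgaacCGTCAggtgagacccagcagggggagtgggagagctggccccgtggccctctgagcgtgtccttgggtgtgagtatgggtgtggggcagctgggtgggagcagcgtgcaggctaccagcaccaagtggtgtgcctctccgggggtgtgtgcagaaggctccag
Egfr (chr11:16751953-16752252, plus): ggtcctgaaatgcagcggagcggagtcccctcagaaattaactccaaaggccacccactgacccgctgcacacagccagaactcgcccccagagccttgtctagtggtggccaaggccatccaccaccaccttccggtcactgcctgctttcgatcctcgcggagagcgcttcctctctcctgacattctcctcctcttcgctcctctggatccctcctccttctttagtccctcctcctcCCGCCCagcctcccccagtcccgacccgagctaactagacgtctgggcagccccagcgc

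The Areg promoter held the full element TGACGTCA, which occurs in 1.79% of the 32851 promoters of the same length. It also held TATAA (24.9% of promoters) and GGGCGG (35.7%). TGACG was found in the Areg, Btc and Erbb2 promoters and in 20.8% of all promoters. Of the 5 promoters only that of Areg held TATAA, while GGGCGG was in those of Areg, Tgfa and Egfr. The AP-1 motif TGANTCA, in 7.81% of promoters, was in none of the 5. CCAAT (37.4% of promoters) was in the Erbb2 promoter only, and the E-box CACGTG (7.15%) in none of the 5. These are matches of letters in a window and do not show that a factor binds.

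The genes of the family were highest in different classes, and receptors and ligands did not separate fully. Of the 9 genes, 3 (Areg, Ereg and Btc) were at least 2-fold higher in cancer-like cells than in each of the other 3 classes in both libraries. In stromal cells 3 genes (Tgfa, Egfr and Erbb2) met the same criterion, in macrophage-like cells 1 (Nrg1), and in T-like cells 0. Among the 17582 genes with at least 20 UMIs over these classes, 5.47% met it in cancer-like cells, 9.72% in stromal cells, 6.48% in macrophage-like cells and 9% in T-like cells. Hbegf and Erbb3 met it in no class. When cells were thinned to 2000 UMIs, Tgfa and Erbb2 no longer met it, and the stromal class then held 1 of the 9 genes, Egfr. Under the other alternatives the genes that met it were those named.

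**Figure D1:**
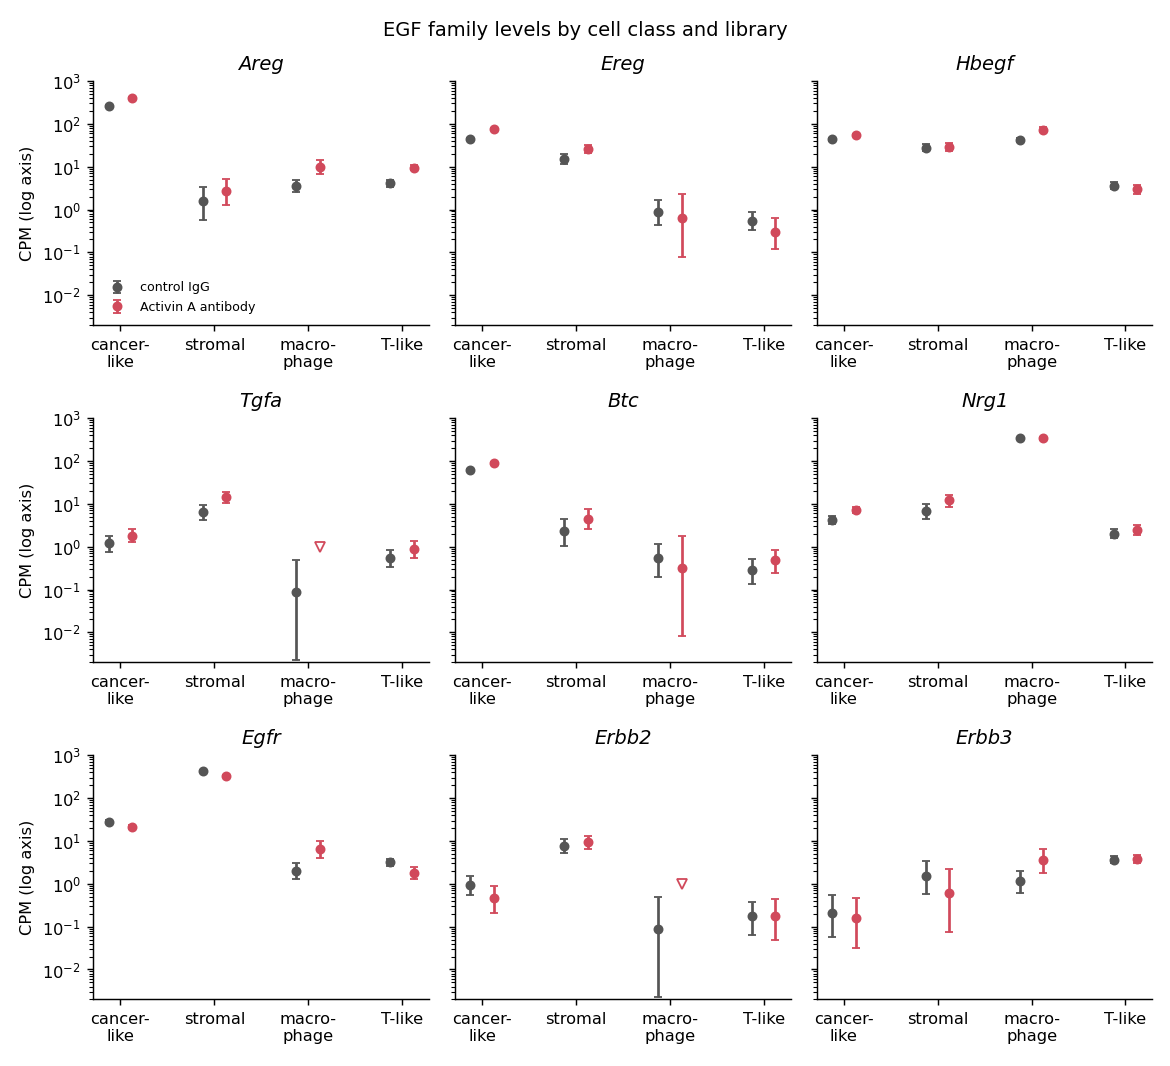
CPM on a log axis of the 9 genes in 4 cell classes, for control IgG (grey) and the Activin A antibody (red), with 95% Poisson intervals. Open triangles stand at 3 UMIs where no UMI was found. Areg reached 263 and 406 CPM in cancer-like cells and stayed at or below 9.96 CPM in the other classes shown. Egfr was highest in stromal cells at 437 and 333 CPM, and Nrg1 in macrophage-like cells at 336 CPM in both libraries.

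Areg, which binds Egfr only, was found in cancer-like cells at 263 CPM (256 to 270, 5000 UMIs) with control IgG and at 406 CPM (397 to 415, 7806 UMIs) with the antibody. In the same class 74.6% (69.6% to 79.1%) and 80.6% (76.0% to 84.6%) of cells held an Areg UMI. Cancer-like cells contributed 91.9% and 92.5% of all Areg UMIs of kept cells, against 23.7% and 33.5% of all UMIs. The next highest main class was T-like with control IgG (4.06 CPM) and macrophage-like with the antibody (9.96 CPM). The level in cancer-like cells was 64.8 and 40.7 times these. It was 170 and 149 times that in stromal cells, the lowest main class, where 6 and 9 UMIs were counted (1.55 and 2.72 CPM).

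Btc, a ligand of Egfr and Erbb4, stood at 61.0 CPM (57.5 to 64.6) and 89.0 CPM (84.8 to 93.3) in cancer-like cells, from 1160 and 1713 UMIs. It was present in 61.8% and 70.3% of these cells. Stromal cells held 9 and 15 Btc UMIs, and the ratio of cancer-like over stromal cells was 26.3 and 19.6. No Btc UMI was found in B-like, NK-like or dendritic-like cells of either library, and the 14 UMIs of monocyte-like cells with the antibody came from 1 cell.

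Ereg, which like Btc binds Egfr and Erbb4, was at 44.2 CPM (41.2 to 47.3, 840 UMIs) and 76.1 CPM (72.2 to 80.1, 1464 UMIs) in cancer-like cells, and at 15.5 CPM (11.8 to 19.9) and 25.7 CPM (20.5 to 31.7) in stromal cells. It was thus less restricted to cancer-like cells than Btc, with a cancer-like over stromal ratio of 2.86 and 2.96. Its stromal UMIs lay in few cells, 13.7% and 10.0% of them, and with the antibody 1 stromal cell held 23.5% of the 85 UMIs. Thinned to 2000 UMIs a cell, 8.61% and 12.7% of cancer-like cells held an Ereg UMI, against 0.493% and 1.38% of stromal cells.

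Hbegf, which binds Egfr and Erbb4 and also serves as the receptor of diphtheria toxin in humans, was shared by 3 of the main classes. Its level was 43.4 CPM (40.5 to 46.5) and 55.2 CPM (52.0 to 58.7) in cancer-like cells, 42.2 CPM (38.5 to 46.1) and 73.3 CPM (64.1 to 83.4) in macrophage-like cells, and 27.8 CPM (22.8 to 33.6) and 29.0 CPM (23.5 to 35.4) in stromal cells. With control IgG the cancer-like and macrophage-like levels did not differ beyond counting error, with a log2 ratio of 0.04 (-0.12 to 0.21). With the antibody the macrophage-like level was higher, and the log2 ratio of cancer-like over macrophage-like cells was -0.41 (-0.62 to -0.19). T-like cells held 3.60 and 3.01 CPM. Outside the main classes, monocyte-like cells held 2.01% of the Hbegf UMIs of kept cells with control IgG and 0.435% with the antibody. Their share of all UMIs was 1.24% and 1.34%.

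Tgfa, a ligand of Egfr, was sparse. Stromal cells held 25 and 47 UMIs (6.44 and 14.2 CPM), cancer-like cells 23 and 35 UMIs (1.21 and 1.82 CPM), and macrophage-like cells 1 and 0. The stromal level was 5.32 and 7.81 times the cancer-like level. Within the stromal class, the cells with at least 5 UMIs per 10000 of mesothelial markers (Msln, Upk3b, Krt19, Wt1 and Lrrn4) held 12 of the 25 and 26 of the 47 UMIs. They were 31 of 205 and 29 of 219 stromal cells, and their Tgfa level was 15.7 CPM (8.12 to 27.4) and 29.2 CPM (19.1 to 42.8).

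Nrg1 was at 336 CPM in macrophage-like cells of both libraries, from 3792 and 1046 UMIs, with intervals of 325 to 347 and 316 to 357. It was detected in 48.5% (45.9% to 51.1%) and 45.0% (40.6% to 49.5%) of them. Monocyte-like cells came next, at 108 CPM (88.7 to 131) and 172 CPM (144 to 204). Dendritic-like cells held 7.58 CPM with control IgG and 55.1 CPM with the antibody, where 1 of the 132 cells carried 30.3% of the 66 UMIs. Stromal cells held 6.70 and 12.1 CPM and cancer-like cells 4.26 and 7.33 CPM. The ratio of macrophage-like over stromal cells was 50.2 and 27.8. Few UMIs were found of the receptors that bind Nrg1. Erbb4 had 69 and 129 UMIs in cancer-like cells, in 21 of 338 and 20 of 350 cells, and at most 4 UMIs in any of the other 3 classes.

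Egfr, the receptor of 5 of the 6 ligands, stood at 437 CPM (417 to 458, 1697 UMIs) in stromal cells with control IgG and at 333 CPM (314 to 353, 1103 UMIs) with the antibody. It was detected in 94.1% (90.0% to 96.9%) and 85.4% (80.0% to 89.8%) of stromal cells, with a median of 5 and 4 UMIs and a highest value of 62 and 53 UMIs per cell. Cancer-like cells held 28.3 CPM (26.0 to 30.8) and 20.8 CPM (18.8 to 23.0), and a UMI was found in 53.8% and 42.6% of these much deeper cells. Thinned to 2000 UMIs a cell, the shares with an Egfr UMI were 47.3% and 41.9% in stromal cells against 5.04% and 4.32% in cancer-like cells. The stromal level was 15.4 and 16.0 times the cancer-like level. Stromal cells were 4.84% and 5.77% of all UMIs and held 60.7% and 62.2% of the Egfr UMIs. Outside the main classes, monocyte-like cells held 2.75% and 0.225% of the Egfr UMIs, against 1.24% and 1.34% of all UMIs. Neutrophil-like cells held 0.357% and 0%, against 0.0863% and 0.143%. Both classes are small, with 154 and 92 monocyte-like and 17 and 10 neutrophil-like cells.

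Erbb2, the partner receptor without a ligand, had 30 and 31 UMIs in stromal cells (7.73 and 9.36 CPM), 18 and 9 in cancer-like cells (0.947 and 0.468 CPM), 6 and 4 in T-like cells, and 1 and 0 in macrophage-like cells. The count of 0 in macrophage-like cells with the antibody has a Poisson upper limit of 1.19 CPM, and 3 UMIs there would be 0.964 CPM. The stromal level was 8.16 and 20.02 times the cancer-like level, from these few UMIs. In thinned cells 2 Erbb2 UMIs were left in each of these classes with control IgG, and the log2 ratio of stromal over cancer-like cells was 0.73. No UMI was found in B-like, NK-like or monocyte-like cells of either library.

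Erbb3, the receptor of Nrg1 that signals through a partner, had few UMIs in every class. Among the 4 main classes it was highest in T-like cells, at 3.66 CPM (3.05 to 4.35, 127 UMIs) and 3.88 CPM (3.12 to 4.78, 89 UMIs), where 2.30% and 1.94% of cells held a UMI and no cell held more than 3. Cancer-like cells held 4 and 3 Erbb3 UMIs among 19015537 and 19248552 UMIs (0.210 and 0.156 CPM). With the antibody the T-like and macrophage-like levels of Erbb3 (3.88 and 3.53 CPM) did not differ beyond counting error. NK-like cells held 3 and 7 UMIs (3.63 and 7.48 CPM). T-like cells contributed 73.0% of the Erbb3 UMIs of kept cells in both libraries, against 43.3% and 39.9% of all UMIs.

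Free RNA gives UMIs in cells that do not express a gene. In barcodes with under 100 UMIs, taken as free RNA, Areg was at 35.0 CPM (220 UMIs) with control IgG and at 108 CPM (498 UMIs) with the antibody. From genes that a class should lack, free RNA was estimated at 1.97% and 0.934% of the UMIs of cancer-like cells, 2.09% and 1.496% of stromal, 7.44% and 22.4% of macrophage-like and 17.1% and 6.42% of T-like cells. Droplets that hold cells of more than 1 class add to these estimates. At these shares free RNA would give 6.01 and 6.92 CPM of Areg in T-like cells, where 4.06 and 9.46 CPM were counted. In macrophage-like cells it would give 2.61 and 24.1 CPM, against 3.63 and 9.96 CPM. The level over the whole class was thus below the estimate in T-like cells with control IgG and in macrophage-like cells with the antibody, and above it in the same classes of the other library. The estimate exceeded the count for other genes as well. Btc was counted at 0.321 CPM in macrophage-like cells with the antibody against an estimate of 5.72 CPM, and at 0.288 CPM against 1.17 CPM in T-like cells with control IgG. These estimates can therefore be too high, and a level over a whole class does not describe its sub-classes, which for T-like cells are given below. In the classes where each gene was highest, the estimate for Areg, Btc, Ereg, Hbegf, Nrg1 and Egfr was at most 5.19 CPM.

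Between the libraries, the ligands of cancer-like cells were higher with the antibody, and Egfr was lower, all by less than 2-fold. Areg was 1.54 times as high, a log2 ratio of 0.63 (0.57 to 0.68). Ereg was 1.72 times as high, with a log2 ratio of 0.78 (0.66 to 0.91), Btc 1.46 times (0.54, 0.44 to 0.65) and Hbegf 1.27 times (0.35, 0.21 to 0.48). The sparse ligands Nrg1 (81 and 141 UMIs) and Tgfa (23 and 35) had log2 ratios of 0.78 (0.38 to 1.20) and 0.59 (-0.21 to 1.41), so the interval of Tgfa included 0. Egfr had a log2 ratio of -0.44 (-0.63 to -0.26) and Erbb2 of -1.02 (-2.35 to 0.21), which includes 0. Of the 8 genes with at least 20 UMIs in this class, 0 were at least 2-fold higher with the antibody and 1, Erbb2, was at least 2-fold lower. Over all 13963 genes tested in cancer-like cells, 1.9% were at least 2-fold higher and 3.75% at least 2-fold lower. The median log2 ratio was 0.57 for the 8 genes and -0.06 for all genes. Ratios above those of Areg, Ereg and Btc were found for 4.28%, 2.92% and 5.18% of all genes.

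**Figure D2:**
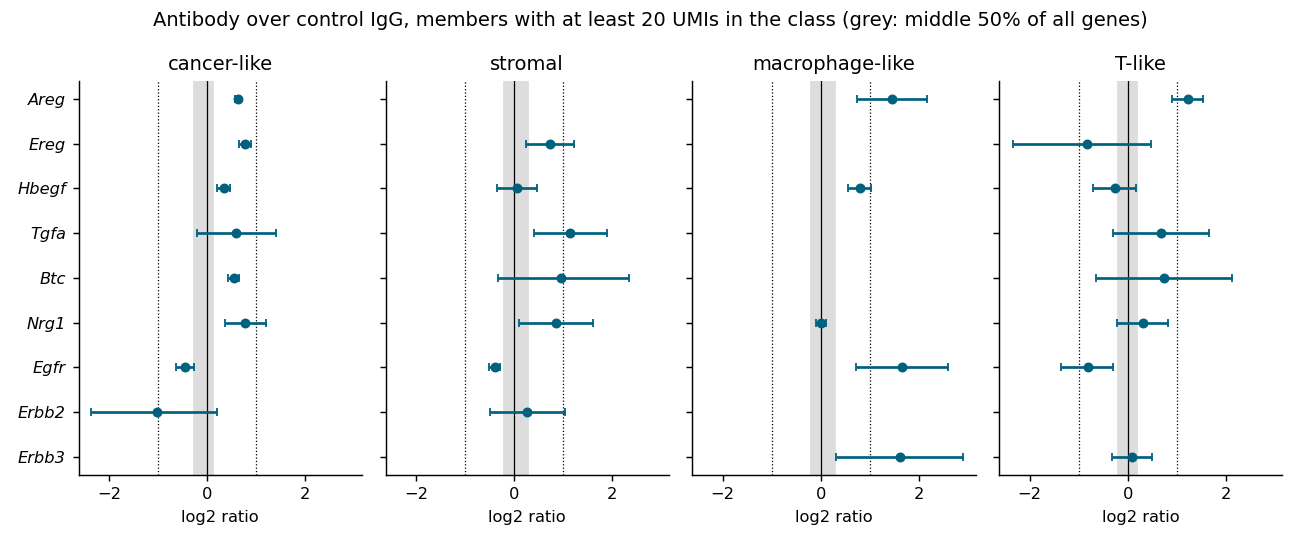
Log2 ratio of the Activin A antibody over control IgG for each gene with at least 20 UMIs in a class, with conditional binomial 95% intervals. The grey band is the middle 50% of all genes of the class and dotted lines mark 2-fold. In cancer-like cells Areg, Ereg, Btc and Hbegf lie between 0.35 and 0.78 and Egfr at -0.44, and in macrophage-like cells Nrg1 lies at 0.00.

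The difference in cancer-like cells was spread over many cells. With control IgG the median cancer-like cell held 5 Areg UMIs (quartiles 0 and 17.8, highest 171), and with the antibody 10 (quartiles 1 and 30, highest 272). The distributions overlapped over nearly their whole range. No cell held more than 3.48% of the Areg UMIs of its library's class, and the cells highest in Areg, 10 of each 100, held 51.2% and 44.5% of them. At least 1 UMI of each of Areg, Ereg, Btc and Hbegf was found in 87 of 338 cells (25.7%, 21.2% to 30.7%) with control IgG and in 127 of 350 cells (36.3%, 31.2% to 41.6%) with the antibody. None of the 4 was found in 30 and 27 cells. Thinned to 2000 UMIs, 27.0% (22.3% to 32.1%) and 35.7% (30.7% to 41.0%) of cells held an Areg UMI.

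**Figure D3:**
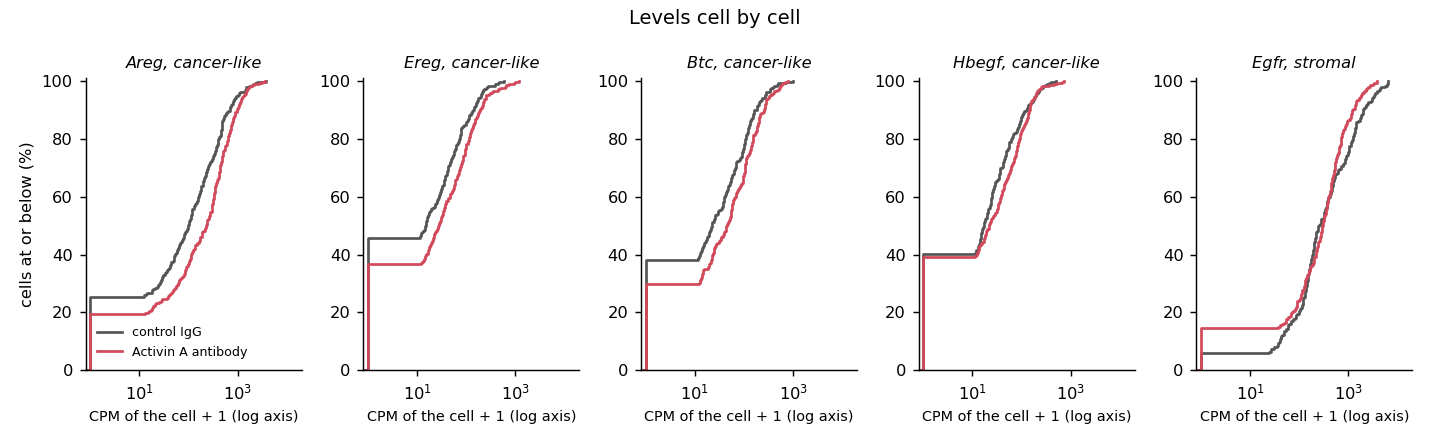
Cumulative share of cells (%) by the CPM of each cell plus 1 (log axis), for Areg, Ereg, Btc and Hbegf in cancer-like cells and Egfr in stromal cells, with control IgG in grey and the antibody in red. For Areg the median cell held 97.9 CPM with control IgG and 228 CPM with the antibody, and for Egfr in stromal cells the curves cross, with medians of 252 and 300 CPM.

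Areg varied together with Ereg and Btc from cell to cell, and Hbegf less so. Over cancer-like cells, Spearman's rank correlation between the CPM of Areg and Ereg was 0.58 with control IgG (338 cells) and 0.59 with the antibody (350 cells), and between Areg and Btc it was 0.50 and 0.47. For Areg and Hbegf the rank correlation was 0.27 and 0.29, and for Areg and Egfr it was -0.04 and -0.05. Pairs without Areg were lower than those of Areg with Ereg or Btc. They were at 0.26 and 0.28 for Ereg and Btc, close to Areg and Hbegf. For Ereg and Hbegf they were 0.21 and 0.22, and for Btc and Hbegf 0.13 and 0.16. The rank correlation between Areg and the UMIs of the cell was 0.16 and 0.22, similar in size to the Hbegf pairs without Areg. Inhba, which encodes the subunit of Activin A and was added because it is the antibody's target, had a rank correlation of 0.32 and 0.36 with Areg. Its values were 0.28 and 0.39 with Ereg, 0.28 and 0.08 with Btc, and 0.19 and 0.14 with Hbegf. The rank correlations of Areg with Fosl1 (0.40 and 0.49) and Phlda1 (0.34 and 0.42) were higher than with Inhba. Those with Dusp6 (0.25 and 0.22), Spry4 (0.16 and 0.20) and Krt18 (0.23 and 0.29) were lower. Inhba was thus neither the highest nor the lowest of these genes. These rank correlations are descriptions over cells that share a library and its depth. The level of Inhba in cancer-like cells is not given here. By in situ hybridization the study found its mRNA in cancer-associated fibroblasts only, in human tumors and in another mouse model (BR-luc).

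Cancer-like cells with at least 5 UMIs of the division genes Mki67 and Top2a numbered 177 and 166, and were deeper, with medians of 68827 and 71611 UMIs against 46414 and 46591.5. Areg was at 288 and 432 CPM in them and at 223 and 369 CPM in the rest, so the log2 ratio of the antibody over control IgG was 0.58 (0.52 to 0.65) and 0.73 (0.64 to 0.81). Egfr was at 19.8 and 16.4 CPM in cells high in the division genes, and at 42.0 and 27.1 CPM in the others. Its log2 ratio was -0.27 (-0.56 to 0.01) in the former, which includes 0, and -0.63 (-0.89 to -0.38) in the latter. Btc was nearly level, at 61.6 and 88.1 CPM against 60.1 and 90.2 CPM.

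In stromal cells the summed Egfr level was lower with the antibody, with a log2 ratio of -0.39 (-0.50 to -0.28). The median stromal cell went the other way, at 252 CPM with control IgG and 300 CPM with the antibody. Of the 7 genes with at least 20 UMIs in this class, 1 (Tgfa, log2 ratio 1.14, 0.41 to 1.90) was at least 2-fold higher and 0 were lower, against 3.05% and 2.55% of the 11990 genes tested. Ereg had a log2 ratio of 0.73 (0.24 to 1.23), Nrg1 of 0.85 (0.10 to 1.62), Btc of 0.97 (-0.32 to 2.34), Erbb2 of 0.28 (-0.50 to 1.05) and Hbegf of 0.06 (-0.35 to 0.47). For Nrg1, 1 stromal cell held 16 of the 40 UMIs with the antibody, and Tgfa rests on 25 and 47 UMIs. Thinned to 2000 UMIs a cell, the stromal class kept 2 and 1 UMIs of Tgfa and 3 and 1 of Nrg1, and the log2 ratios turned to -1.10 and -1.68. The median ratio was 0.73 for the 7 genes and 0.03 for all genes. In the same cells, 5 of 11 genes known to respond to dissociation of tissue (Fos, Fosb, Atf3, Hspa1a and Hspa1b) were at least 2-fold higher with the antibody, with a median log2 ratio of 0.99 over the 11. Their part in these ratios was not tested.

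Of 3 stromal sub-classes, set by markers with minimums chosen after the data were seen, 1 had a lower Egfr level with the antibody beyond counting error. Stromal cells low in both the mesothelial markers and Acta2, Tagln and Myl9 (124 and 172 cells) held Egfr at 808 CPM (764 to 853) with control IgG and 424 CPM (396 to 453) with the antibody. The log2 ratio was -0.93 (-1.06 to -0.81). Cells with at least 5 UMIs per 10000 of the contractile genes Acta2, Tagln and Myl9 (50 and 18 cells) held 171 and 244 CPM, a log2 ratio of 0.51 (0.15 to 0.85). Mesothelial-like cells (31 and 29) held 174 and 166 CPM, a log2 ratio of -0.07 (-0.41 to 0.28). Whether these ratios differ beyond the spread between mice could not be tested. Egfr was thus lower in the contractile and mesothelial-like cells than in the other stromal cells in both libraries. Median depths were 10510.5 and 8237.5 UMIs in the first sub-class, 28050 and 20749.5 in the contractile cells and 23812 and 32951 in the mesothelial-like cells.

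**Figure D4:**
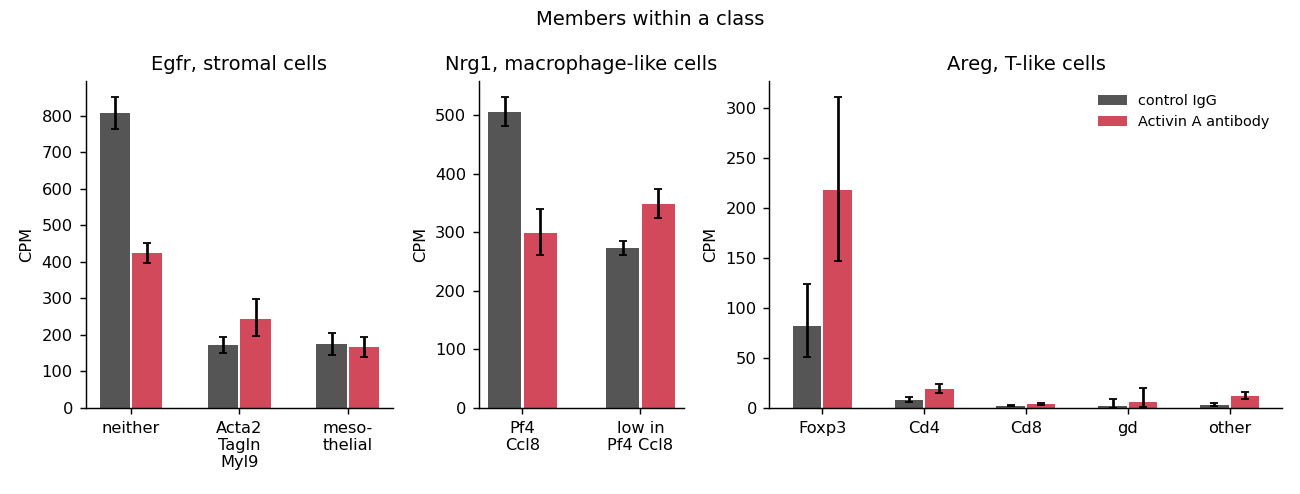
CPM of Egfr in 3 stromal sub-classes, Nrg1 in 2 macrophage-like sub-classes and Areg in 5 T-like sub-classes (gd, Trdc and Tcrg-C1), for control IgG (grey) and the Activin A antibody (red), with 95% Poisson intervals. Egfr is highest in stromal cells low in both marker lists, at 808 and 424 CPM, and Areg in Foxp3-positive T-like cells, at 82.1 and 218 CPM.

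The stromal UMIs of Ereg lay in different sub-classes in the 2 libraries. With control IgG 44 of its 60 UMIs lay in the contractile cells (29.3 CPM, 21.3 to 39.4), and with the antibody 59 of 85 lay in the cells low in both lists (29.1 CPM, 22.2 to 37.5), where 1 cell held 20 of them. Mesothelial-like cells held 3 and 23 UMIs. The number of contractile cells differed as well, at 50 and 18. Hbegf was at 42.0 and 35.5 CPM in contractile cells, 23.6 and 49.4 CPM in mesothelial-like cells and 16.7 and 18.7 CPM in the others.

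In macrophage-like cells the level of Nrg1 was equal in the libraries, with a log2 ratio of 0.00 (-0.10 to 0.10), while Hbegf was 1.74 times as high with the antibody (log2 ratio 0.80, 0.56 to 1.03). Hbegf was detected in 15.5% (13.7% to 17.5%) and 15.8% (12.7% to 19.3%) of these cells. Their median depth was 7346 UMIs with control IgG and 5685 with the antibody, so these shares are not at equal depth. In thinned cells the shares were 6.53% (5.29% to 7.96%) and 8.33% (6.02% to 11.2%), with intervals that overlap. Thinned Hbegf UMIs numbered 105 in 1393 cells with control IgG and 70 in 480 cells with the antibody. Before thinning, 1 cell of the antibody library held 37 of the 228 UMIs (16.2%). Of the 5 genes with at least 20 UMIs, 3 (Areg, Egfr and Erbb3) were at least 2-fold higher and 0 lower, against 4.38% and 2.72% of 12012 genes. These 3 rest on 41 and 31, 23 and 20, and 13 and 11 UMIs. For Egfr, 10 of the 20 UMIs came from 1 cell, and the log2 ratio of 1.66 turned to -1.43 without the deepest 5% of cells. Areg was below the estimate for free RNA with the antibody. Stromal and cancer-like genes were also higher in macrophage-like cells with the antibody, Col1a1 at 29.3 and 139 CPM and Dlk1 at 12.7 and 32.8 CPM. The median ratio was 1.46 for the 5 genes, which is the value of Areg, and 0.04 for all genes. Members with fewer than 20 UMIs are not in this median. Of these, Ereg (10 and 2 UMIs) had a log2 ratio of -0.46 (-3.69 to 1.77) and Btc (6 and 1) of -0.73 (-6.25 to 2.32). Tgfa and Erbb2 had 1 and 0 UMIs each. The dissociation genes Fos, Fosb, Egr1, Atf3 and Zfp36 were at least 2-fold higher in this class as well (5 of 11, median log2 ratio 0.95), and their part in the Hbegf ratio was not tested.

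Macrophage-like cells with at least 2 UMIs of Pf4 and Ccl8, which encode chemokines, numbered 338 and 105. In these cells Nrg1 stood at 506 CPM (481 to 532) and 299 CPM (262 to 340), and its log2 ratio was -0.76 (-0.96 to -0.56). For the remaining 1091 and 388 cells the level was 273 CPM (262 to 285) and 349 CPM (325 to 373), with a log2 ratio of 0.35 (0.23 to 0.47). The equal level over the whole class was thus a sum of differences of opposite sign. Median depths were 8717 and 6332 UMIs in the first sub-class and 7006 and 5600 in the rest. The cut at 2 UMIs was not scaled to depth, so it need not pick like cells in both libraries. In both sub-classes Hbegf was higher with the antibody, with log2 ratios of 0.58 (0.12 to 1.02) and 0.89 (0.62 to 1.17). The class contributed 85.9% of the Nrg1 UMIs of kept cells with control IgG and 61.3% with the antibody, where macrophage-like cells were fewer. Its share of all UMIs was 14.1% and 5.42%.

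In T-like cells 1 of the 8 genes with at least 20 UMIs, Areg, was at least 2-fold higher with the antibody and 0 were lower, against 1.66% and 3.38% of 14812 genes. The median ratio was 0.19 for the 8 genes and 0.01 for all. The Areg values of 4.06 and 9.46 CPM (log2 ratio 1.22, 0.91 to 1.54) stood beside free Areg RNA at 35.0 and 108 CPM, whose part in the ratio was not tested. Thinned cells gave a log2 ratio of 0.57. Areg was not evenly spread over T-like cells. Those with a UMI of Foxp3, the factor of regulatory T cells, and none of Cd8a or Cd8b1 held 82.1 CPM (51.4 to 124) and 218 CPM (147 to 312), from 22 and 30 UMIs in 11 of 40 and 6 of 23 cells. A UMI of Areg was found in 27.5% (14.6% to 43.9%) and 26.1% (10.2% to 48.4%) of them, against 1.52% and 1.46% of the T-like cells with at least 2 UMIs of Cd8a and Cd8b1. Median depths were 5369.5 and 4168 against 5827.5 and 4876 UMIs. Thinned to 2000 UMIs the shares were 26.3% and 26.1% against 0.279% and 0.451%. The level in Foxp3-positive cells exceeded that of the free RNA itself in both libraries. Other Cd4-positive cells held 8.19 and 18.9 CPM. The log2 ratio in Foxp3-positive cells was 1.41 (0.57 to 2.28), with 10 of the 30 UMIs of the antibody library in 1 cell. The ratio was not confined to them. It was 1.21 (0.67 to 1.76) in the other Cd4-positive cells and 0.86 (0.30 to 1.43) in the cells with Cd8a and Cd8b1. T-like cells outside the sub-classes set by markers held 3.31 and 11.7 CPM, a log2 ratio of 1.82 (1.01 to 2.69). Egfr, with a log2 ratio of -0.82 (-1.36 to -0.29), had 112 and 42 UMIs in T-like cells, which held the stromal gene Col1a1 at 116 and 27.1 CPM. The part of stromal RNA in that ratio was not tested, and the log2 ratio turned to 0.34 without the deepest 5% of cells.

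Of the other genes of the pathway, in lists chosen with earlier results known, 1 passed 2-fold in cancer-like cells. Over all genes tested in this class, 1.9% were at least 2-fold higher, 3.75% at least 2-fold lower and 40.2% above a log2 ratio of 0. Of 6 further family members 2 had at least 20 UMIs, the receptor Erbb4 with a log2 ratio of 0.89 (0.45 to 1.33), on UMIs in 21 and 20 cells, and Egf with -0.17 (-0.87 to 0.52). Of 13 feedback inhibitors of receptor and ERK signalling, 0 were at least 2-fold higher or lower, and 11 had a ratio above 0 (median log2 ratio 0.15). The largest were Spry4 (30.4 and 47.7 CPM, log2 ratio 0.65, 0.50 to 0.80) and Lrig3 (0.53), and the lowest Spry1 (-0.45) and Cblb (-0.20). Of 10 ERK-induced genes 0 passed 2-fold and 9 had a ratio above 0 (median 0.06). The largest were Egr1 (414 and 613 CPM, 0.57) and Fosl1 (25.6 and 35.8 CPM, 0.49). Of 18 adaptors and kinases 0 passed, with Gab1 the lowest at -0.73, and 6 had a ratio above 0 (median -0.11). Of 6 tested genes of ligand shedding, only Timp3, an inhibitor of ADAM proteases, passed (9.78 and 4.21 CPM, -1.22, -1.61 to -0.83). Timp3 was far higher in stromal cells, at 1016 and 741 CPM. Of stromal genes in cancer-like cells, Acta2 was at 4.47 and 0.883 CPM and Col1a1 at 11.9 and 11.7 CPM. The part of stromal RNA in the Timp3 ratio of cancer-like cells was not tested. Rhbdf2 and Adam17, which act in the release of these ligands, had ratios of 0.40 and 0.29. In the dissociation list, which also holds Egr1, Fos and Junb, 0 of 11 genes passed in cancer-like cells and 8 had a ratio above 0 (median 0.09). The largest were Fosb (0.62) and Hspa1a (0.57), and the lowest Jun (-0.29) and Ier2 (-0.13). The part of dissociation in the ratios of the ERK-induced genes was not tested.

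In macrophage-like cells 4 of 10 ERK-induced genes were at least 2-fold higher with the antibody (Fosl1, Egr1, Fos and Myc), against 4.38% of all genes tested there. The count was 3 at a minimum of 50 UMIs, without Fosl1, and 3 when centred on the median gene, without Fos. Of the 4, Egr1 (171 and 422 CPM, 1.30, 1.20 to 1.40) and Fos are also in the dissociation list. Fosl1 rests on 30 and 18 UMIs (2.66 and 5.78 CPM) and Myc on 66 and 44 (5.85 and 14.1 CPM). Both were higher in cancer-like cells, Fosl1 at 25.6 and 35.8 CPM and Myc at 63.5 and 63.9 CPM. Free RNA was estimated at 7.44% and 22.4% of the UMIs of macrophage-like cells. The part of RNA from other classes in these ratios was not tested. Of 10 feedback inhibitors tested there, 1 passed, Lrig1 on 13 and 12 UMIs. In stromal cells 1 of 10 ERK-induced genes (Fos) and 0 of 13 feedback inhibitors passed, against 3.05% of all genes higher and 2.55% lower. In T-like cells Fosl1 (90 and 29 UMIs), Timp3 (20.7 and 3.49 CPM) and Nrg4 (36 and 11 UMIs) were at least 2-fold lower, against 3.38% of all genes, and 0 of the 18 adaptors and kinases passed. Timp3 was at 1016 and 741 CPM in stromal cells, and the stromal genes Col1a1 (116 and 27.1 CPM) and Acta2 (677 and 0 UMIs) were lower in the same T-like cells. The part of stromal RNA in the Timp3 ratio was not tested. The macrophage-like marker C1qb was also lower in T-like cells, at 11.2 and 2.09 CPM. The part of macrophage RNA in the Nrg4 ratio was not tested, nor that of RNA from other classes in the Fosl1 ratio. Of the other neuregulins, Nrg2 and Nrg4 were at 16.7 and 14.1 CPM and at 7.09 and 7.71 CPM in macrophage-like cells. Epgn had at most 4 UMIs, and Nrg3 at most 6, in any of these classes and libraries.

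The genes most like each of the 9 were sought by the correlation of log2(CPM + 1) over 18 points, which are 9 classes in each of 2 libraries, among 14461 genes with at least 100 UMIs. Areg was most like Add2 (Pearson's r = 0.95), Wnt7b (0.93) and Uhrf1bp1 (0.91), and Ereg most like Cfap69 (0.98), Irx5 (0.98) and Tspan11 (0.97). The pattern of Btc was nearest to those of Rgs4 (0.97), Nptx1 (0.97) and Ndst3 (0.96). Hbegf was nearest to Etv5 (0.90), Idh1 (0.90) and Gm15417 (0.89), and Tgfa to Hoxa5 (0.93), Dnah7b (0.90) and Ssc5d (0.89). Nrg1 was nearest to Cebpa (0.95), a factor of myeloid cells, Scarf1 (0.94) and Mfsd1 (0.92). Egfr was nearest to Il1r1 (0.96), Bicc1 (0.96) and Fbln1 (0.95). Erbb2 was nearest to Prrg3 (0.97), Lpin3 (0.96) and Rxfp1 (0.96), and Erbb3 to Rims3 (0.94), Gm20750 (0.88) and BC043934 (0.86). Each named gene was picked as nearest among the 14461, and how high r would be from such a search alone was not tested. Erbb2 had 59 and 52 UMIs in all kept cells, Tgfa 80 and 119, and Erbb3 174 and 122. The neutrophil-like points rest on 17 and 10 cells. The points share libraries and the values describe these libraries only.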

How the data were processed

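The deposited files of each library are 10x Genomics count matrices. Each value is a raw UMI count, which the authors neither filtered nor normalized. The submitters' processing notes name Cell Ranger 7.0.1 and mm10, while the file headers name Cell Ranger 4. The 10x chemistry, the days and the numbers of mice differ between the labels and the study's text, and which of its experiments gave the libraries was not settled. Of the gene identifiers, 32235 of 32285 matched GENCODE M21 (GRCm38).

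The limits on cells followed the study: 1000 to 8500 genes, a UMI total from 1000 to 100000, and a mitochondrial share of 10% or less. A class needed at least 3 marker UMIs and, per 10000 UMIs, at least 10 for cancer-like (Krt18 left out), macrophage-like and T-like cells and 40 for stromal cells. Cancer-like and stromal cells had at most 1 Ptprc UMI per 10000. B-like, NK-like, dendritic-like, monocyte-like and neutrophil-like cells were set by further markers (10, 10, 5, 5 and 50). Cells that met the minimums of several main classes, or of a main class and the B-like class, were left out as mixed (122 and 56). Cells of a main class that also met the NK-like, dendritic-like, monocyte-like or neutrophil-like minimum stayed in it. No doublet caller was run, and 661 and 514 cells had no class. A marker of the macrophage-like list is not reported here. Minimums were set from the markers after the files were seen. Members and lists were chosen with earlier results of these data known.

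UMIs were summed per class and library. With 1 library a group there was no test, SD or p-value. Genes with at least 20 UMIs in a class were compared, and 2-fold was the threshold. Named genes are the 9 members, per list the most extreme genes in each direction, and the 3 genes most like each member. Inhba, Fosl1, Phlda1, Dusp6, Spry4 and Krt18 in the rank correlations, and single genes named for a count, were added after values were seen. Mesothelial-like cells were set before contractile cells. Thinning used 2000 UMIs a cell and seed 1. The ratio and its interval were tested on simulated data. Python 3.11.15, numpy, scipy and pandas were used. Alternatives were a doubled gate minimum, mixed cells kept, wider limits (500 genes, 500 UMIs, 20% mitochondrial), the deepest 5% of cells left out, thinned cells, free RNA subtracted, the mean over cells, centring on the median of all genes and, added after seeing the data, stromal cells without the mesothelial-like cells.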

Additional observations from a re-analysis of the deposited data

Results flagged for a closer look

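In barcodes with under 100 UMIs, taken as free RNA and part of no class, 4 ligands were above their level in the control IgG library with intervals that do not overlap. Areg was at 108 CPM (98.7 to 118) with the antibody against 35.0 CPM (30.6 to 39.999), Ereg at 18.4 CPM (14.7 to 22.8) against 6.21 CPM (4.42 to 8.49), Btc at 25.6 CPM (21.2 to 30.6) against 6.85 CPM (4.96 to 9.23), and Hbegf at 18.6 CPM (14.9 to 23.0) against 10.99 CPM (8.55 to 13.9). Egfr (14.5 and 10.0 CPM) and Nrg1 (23.2 and 20.7 CPM) had intervals that overlap. Cancer-like cells held 33.5% of the UMIs of kept cells with the antibody and 23.7% with control IgG, and the part of this in the free RNA was not tested.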

How the results depend on the processing

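No paired analysis was possible because a single library of pooled tumors stands for each group, and no replicate could be left out. Of 223 recomputed ratios between the libraries 182 kept their sign within the interval, 18 kept it beyond the interval and 23 changed sign. Of these 23, 8 had an interval that excludes 0 and are given below, and 15 belong to 6 ratios whose interval includes 0 (Hbegf and Btc in stromal, Nrg1 in macrophage-like and Ereg, Hbegf and Nrg1 in T-like cells). Of 120 ratios between classes, 92 kept their sign within the interval, 25 kept it beyond, and 3, all of Hbegf in cancer-like over macrophage-like cells with control IgG, changed it. The causes of the changes below were not tested. All values are log2 ratios.

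For the antibody over control IgG, thinning gave 0.55 for Areg, 0.76 for Hbegf and 0.31 for Btc in cancer-like cells, -0.63 for Egfr in stromal cells and 0.17 for Nrg1 in macrophage-like cells. The mean over cells gave 0.57 for Areg in cancer-like cells, -0.63 for Egfr in stromal cells and 1.04 for Hbegf in macrophage-like cells. Centring gave 0.69 for Areg in cancer-like cells, and leaving out the deepest cells gave 0.10 for Nrg1 in macrophage-like cells. Among intervals that exclude 0, signs changed on thinning for Nrg1 in cancer-like cells (-0.46), Tgfa in stromal cells (-1.10), Nrg1 in stromal cells (-1.68) and Egfr in macrophage-like cells (-0.78). They also changed with mixed cells kept for Egfr in macrophage-like (-0.20) and T-like cells (0.39), and without the deepest cells for Egfr in macrophage-like (-1.43) and T-like cells (0.34).

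For cancer-like over stromal cells with control IgG, thinning gave 5.60 for Areg and 4.27 for Ereg, and the mean over cells 2.18 for Ereg. With the antibody Areg was 8.94 without mesothelial-like cells and 8.52 with free RNA subtracted. Ereg was 1.95 without the deepest cells, 3.05 thinned and 2.53 as the mean over cells, and Btc 5.23 without the deepest cells and 5.58 as the mean. For Hbegf in cancer-like over macrophage-like cells, thinning gave -0.14 with control IgG and the mean over cells -0.62 with the antibody.

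For Egfr in stromal over cancer-like cells, control IgG gave 3.77 with mixed cells kept, 4.47 thinned, 4.14 without mesothelial-like cells and 4.57 as the mean over cells, and the antibody 4.27 without the deepest cells, 4.19 thinned, 4.24 without mesothelial-like cells and 4.57 as the mean. Tgfa with the antibody was 2.25 without mesothelial-like cells and 1.64 as the mean. Erbb2 with control IgG was 0.73 thinned. Nrg1 in macrophage-like over stromal cells was 5.02 with mixed cells kept (control IgG), 7.36 thinned and 5.36 as the mean (antibody). Of 96 pathway counts 5 changed. At a minimum of 50 UMIs the feedback inhibitors higher in macrophage-like cells (Lrig1) and the family members lower in T-like cells (Nrg4) fell from 1 to 0, and the ERK-induced genes higher in macrophage-like cells from 4 to 3. Centring gave 3 for the last, and 4 in place of 5 dissociation genes higher in macrophage-like cells.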
